A study of Arabidopsis thaliana with 4 samples.

Results

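Expansins and xyloglucan endotransglucosylase/hydrolases (XTHs) are secreted cell wall proteins of growing plant tissues, and 35 of their genes were examined for binding of the MADS domain protein FRUITFULL (FUL). They comprised 25 expansin genes (19 *EXPA*, 2 *EXPB*, 3 *EXLA* and 1 *EXLB*) and 10 *XTH* genes, out of 70 genes that the annotation assigns to both families and 27444 nuclear protein-coding genes in all. The genes were listed by family and locus with earlier results of these data known, so their shares with a site are a description, and each site of the deposited list, whatever its score, was given to a gene when its maximum lay no more than 3000 bp before the ATG or 1000 bp after the stop codon, or anywhere between these codons.

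FUL binding had been measured by ChIP-Seq in pistils and siliques of *Arabidopsis thaliana* from stage 12 to stage 16, with 2 ChIP samples and 2 samples of input DNA. All 4 samples had the genotype pFUL:FUL-GFP *ful-1* in a Col/Ler background, so the precipitated protein was a GFP fusion driven by the *FUL* promoter in the *ful-1* mutant, and a GFP antibody was used. The plants were untreated and kept at 22 °C with 16 h of light and 8 h of dark, on soil per the labels. Each site carried 1 score that the authors had computed over both replicates against the input, so neither a spread between replicates nor the depth of a library could be given for any value below, and no difference was tested.

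Expansins loosen the wall at acid pH without cutting its polymers, probably by weakening the contacts between cellulose and other polysaccharides. XTH enzymes cut xyloglucan, the main hemicellulose of the primary wall in most dicots, and join the cut end to another chain or, in some members, to water. FUL is needed for the growth of the silique valves, which stay short in *ful* mutants, and like other MADS domain proteins it binds CArG boxes, which consist of CC, 6 bases that are A or T, and GG.

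Among the 13 sites of these genes none had an exact CArG box within 100 bp of the maximum, and 6 had a box with 1 mismatch. Of these boxes 5 are shown to let their bases be compared, on the strand of the gene and in coordinates of TAIR9, with 10 flanking bases on either side and the box in capitals. The substitution gives the base of the CArG box, its position counted from 1 at the first base of the box, and the base found. Sequences were read from the RefSeq assembly TAIR10.1.
XTH28, minus strand, chr1:5067511-5067540, C2T: cttgatatttCTATTTAAGGaaagttgggt
EXPA1, plus strand, chr1:26143160-26143189, G10A: ttgaggttaaCCTAAAAAGAagtggtgctt
EXPA15, minus strand, chr2:919173-919202, G10T: ctaaatacctCCAATATAGTagtagaaatc
EXPB1, plus strand, chr2:8940956-8940985, C2A: atccccccctCATAAAATGGcacactacgt
XTH9, plus strand, chr4:1414734-1414763, G10A: tctttaaaagCCTTAAAAGAgtaaagagtc

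In all 6 boxes the mismatch was in the outer C or G bases and the inner stretch was made of A and T throughout. In the whole list this was so for 587 of 775 sites with 1 mismatch (75.7%). For contrast, exact boxes occurred at both sites of *XTH27*, an *XTH* gene outside the 35, and the site with the highest score in a window of either family, upstream of *XTH8*, had a box with 1 mismatch, also in the outer C.
XTH27, plus strand, chr2:383367-383396: acgactgttaCCAAAAATGGagttaacggc
XTH27, plus strand, chr2:386360-386389: tgtgtgatcgCCTAAAATGGtttacagctt
XTH8, minus strand, chr1:3881440-3881469, C1T: ttctggtttcTCTTATTAGGaccgacatgc

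A site was found for 13 of the 35 genes (37.1%), whereas 22 had none. At or above the median score of the list, 8 genes had a site. Of all protein-coding genes 3830 had a site, which is 14.0%, and nothing is read from the difference, since the genes were listed with earlier results known. The windows had a median of 5189 bp, against 5568 bp for all protein-coding genes, and what window length contributed to the shares was not tested. A high-scoring site, that is one at or above the upper quartile of all scores (6.81), was present in 4 of the 35 genes (11.4%), compared with 3.94% of all protein-coding genes. Of the 35 remaining genes of both families 3 had a site (8.57%), which brought both families together to 16 of 70 genes (22.9%). The remaining genes are what the same listing left over, and nothing is read from their share against 14.0% either.

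Expansin and *XTH* genes had a site about equally often, in 9 of 25 (36.0%) and 4 of 10 (40.0%), and the scores were higher at the *XTH* sites. The median score was 4.74 for the 9 sites of expansins (range 3.19–9.55) and 9.005 for the 4 sites of *XTH* genes (range 3.4–11.03), against 4.43 for all 2831 sites of the list. Of these 4 sites, however, 2 belonged to *XTH28* alone. With the highest score per gene the median was 7.75 for *XTH* genes and 4.74 for expansins. A high-scoring site occurred in 1 of 25 expansin genes (4.0%) and in 3 of 10 *XTH* genes (30.0%), and the first of these shares was near the background of 3.94%. As *XTH22* and *XTH25* counted through the same site, each site was also given only to the nearest of the genes whose windows held it. Then 2 of 10 *XTH* genes (20.0%) remained, compared with 1 of 25 expansin genes and 2.33% of all genes. The *XTH* sites were also longer, with a median of 284.5 bp against 141 bp, and 124 bp in the whole list. With so few sites the ranges overlapped, since the highest expansin score lay between those of *XTH22* and *XTH28*, and the lowest *XTH* score fell among the weakest expansin sites.

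**Figure D1:**
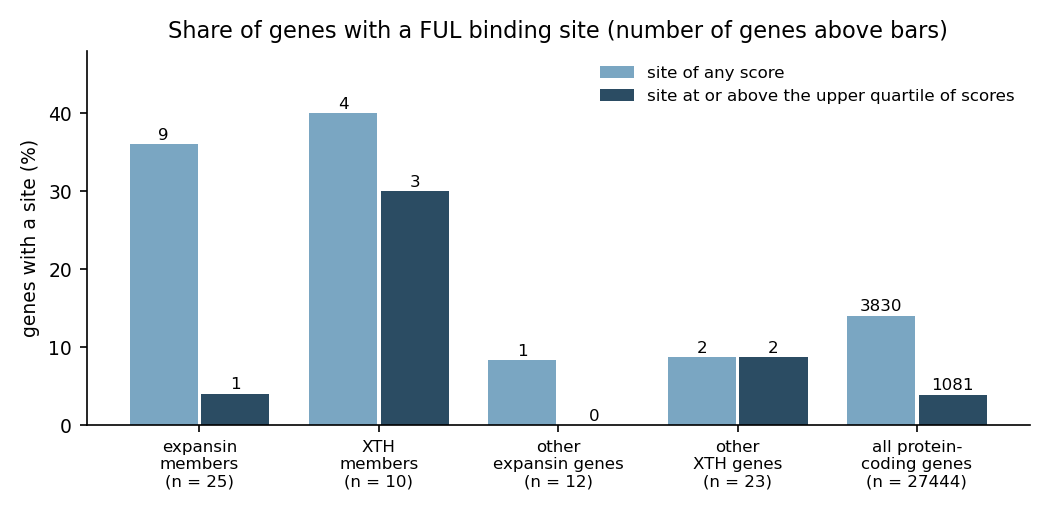
Percentage of genes with a site of any score (light bars) or with a site at or above the upper quartile of scores (dark bars) in the expansin and *XTH* genes examined, in the remaining genes of both families and in all protein-coding genes, with the number of genes above each bar. Light bars stood at 36.0% and 40.0% for the genes examined and at 14.0% for all genes, whereas the dark bars were 4.0% for expansins and 30.0% for *XTH* genes, of which *XTH22* and *XTH25* share a site.

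**Figure D2:**
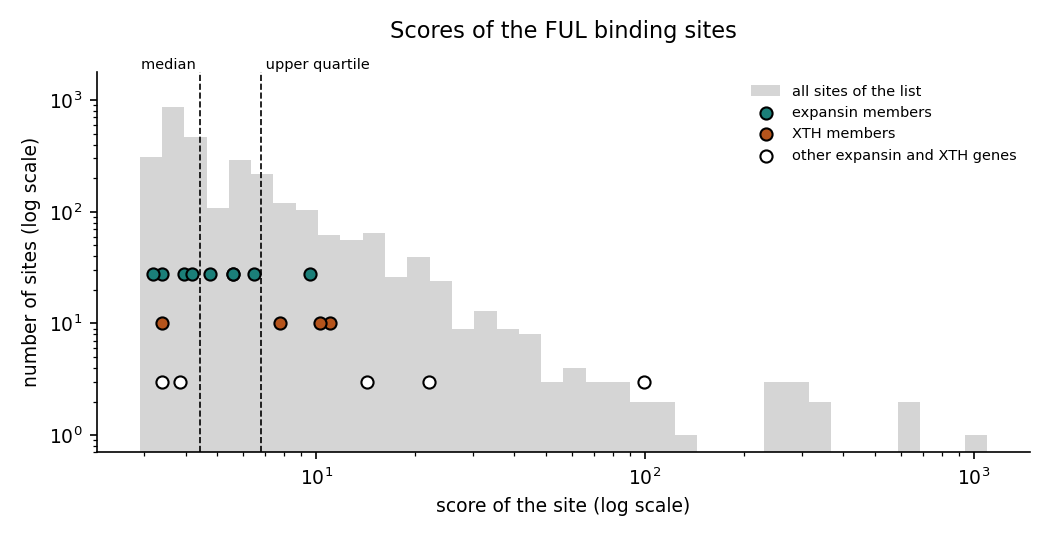
Scores of all 2831 sites (grey histogram, both axes logarithmic), with the sites of expansin, *XTH* and remaining family genes as points whose height has no meaning and dashed lines at the median (4.43) and the upper quartile (6.81). Of the expansin sites only that of *EXPA8* (9.55) lay above the upper quartile, compared with 3 of the 4 *XTH* sites.

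The whole list held 2831 sites on 5 chromosomes with scores from 2.99 to 1071.13, of which 752 were high-scoring. Scores took only 234 different values, so that many sites shared a rank. The list holds more sites than the set that the study kept under its false discovery rate limit, and it does not mark that set. Loci of the kept set are named in the study's supplement, where *XTH28* and *EXPA1* appear but *EXPA15* (score 5.57) and *EXPB1* (4.18) do not. The entry of *EXPA1* there has a maximum of 6.81 beside a value of 6.47, so it does not show whether the site of 6.47 was itself kept. *XTH8* (99.32) and *XTH27* (22.04) are also listed there, and other genes with a site were not looked up. In the first part of that supplement, the part that was read, no locus had a maximum below 5.6. The sites of *EXPA3*, *EXPA5*, *EXPA6*, *EXPA9*, *EXPA15*, *EXPB1*, *EXLA2* and *XTH9* had lower scores and may lie outside the set. Since the list begins at 2.99, a gene without a site may have weaker enrichment, which was not detectable here.

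*XTH28* (AT1G14720) had the strongest binding of the 35 genes and was the only one with more than 1 site. This enzyme is required for the elongation of stamen filaments. The site with the score of 11.03 (rank 288 of 2831) covered chr1:5067298-5067543 and its maximum lay in an intron, 1018 bp past the start codon and 642 bp before the end of the stop codon. The other site, with a score of 10.26 (rank 336), covered chr1:5070533-5070894 and peaked 2317 bp upstream of the start codon, outside the transcript. The gene AT1G14710 was within reach of the intron site and AT1G14730 of the upstream site, but neither was nearer than *XTH28*. The sequence around the intron maximum is given with the box with 1 mismatch in capitals, and that around the upstream maximum, where the best match to a CArG box had 2 mismatches, with the base of the maximum in capitals.
XTH28, minus strand, chr1:5067348-5067548: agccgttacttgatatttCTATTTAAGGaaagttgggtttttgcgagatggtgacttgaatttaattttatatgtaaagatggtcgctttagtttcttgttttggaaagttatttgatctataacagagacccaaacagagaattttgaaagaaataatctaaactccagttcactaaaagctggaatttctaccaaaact
XTH28, minus strand, chr1:5070733-5070833: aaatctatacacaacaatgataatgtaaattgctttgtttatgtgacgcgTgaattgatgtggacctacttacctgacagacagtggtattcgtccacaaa

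*XTH22* (AT5G57560), known as *TOUCH4* because touch induces it, had a site with a score of 7.75 (rank 549) at chr5:23307231-23307555. Its maximum lay in coding exon 2 of 2, 849 bp past the start codon and 90 bp before the end of the stop codon. The same site was 1002 bp upstream of the start codon of *XTH25* (AT5G57550), the next gene on the same strand, with 911 bp between the coding parts. Therefore 5 pairs of an *XTH* gene and a site rested on 4 sites. If only the nearest of the genes with the site in their windows was counted, *XTH25* dropped out and 3 of 10 *XTH* genes had a site. The sequence within 100 bp of this maximum resembled 8 other places in the genome, all in *XTH* genes, with the highest identity in *XTH23* (79.6% over 191 bp). The 101 bp around the maximum are shown as an example of a site in an *XTH* coding sequence, with the base of the maximum in capitals.
XTH22, minus strand, chr5:23307336-23307436: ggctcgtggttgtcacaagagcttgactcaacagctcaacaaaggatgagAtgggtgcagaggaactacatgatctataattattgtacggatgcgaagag

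*XTH9* (AT4G03210) had the weakest *XTH* site, with a score of 3.4, at chr4:1414813-1414948. The maximum was listed at the first base of the site, 1206 bp upstream of the start codon, and AT4G03220 was also within reach. The coding part of AT4G03205 (*hemf2*) was nearer, at 1048 bp, but the site lay outside its window, so *XTH9* stayed in the count by nearest gene. A score of 3.4 was shared by 689 sites, which placed this site in the lower part of the list (rank 1835).

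The other 6 *XTH* genes had no site. They were *XTH4* (AT2G06850), *XTH15* (AT4G14130), *XTH16* (AT3G23730), *XTH23* (AT4G25810), *XTH24* (AT4G30270) and *XTH33* (AT1G10550), the last of which encodes a protein with a predicted membrane anchor.

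Of the expansins, *EXPA8* (AT2G40610) had the highest score, 9.55 (rank 347), at chr2:16948950-16949119. The maximum lay in the 3′ UTR, 90 bp past the stop codon, and AT2G40600 and AT2G40590 were also within reach but further away. *EXPA1* (AT1G69530), an auxin-responsive gene of lateral root founder cells and guard cells, followed with a score of 6.47 (rank 763) at chr1:26143053-26143228. Its maximum was only 7 bp past the stop codon, also in the 3′ UTR. Both sites thus lay at the 3′ end of the gene, and no other protein-coding gene was within reach of the *EXPA1* site.

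*EXPA9* (AT5G02260) and *EXPA15* (AT2G03090) had sites with the same score of 5.57, a value shared by 222 sites. The *EXPA9* site covered chr5:464133-464346 and peaked in an intron, 975 bp past the start codon and 641 bp before the end of the stop codon. The *EXPA15* site covered chr2:919165-919464 and peaked 639 bp upstream of the start codon, the only upstream site among the 7 *EXPA* genes with a site. The sequence within 100 bp of the *EXPA9* maximum was the only one of the 13 with the hexamer TGTCTC, the core of an auxin response element.

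*EXPA3* (AT2G37640), *EXPA6* (AT2G28950) and *EXPA5* (AT3G29030), a gene that responds to brassinosteroids, had weaker sites in the last coding exon, exon 3 of 3 in each. The *EXPA3* site had a score of 4.74 (rank 1162) at chr2:15788189-15788330, with the maximum 210 bp before the end of the stop codon. The *EXPA6* site had a score of 3.95 (rank 1652), was 32 bp long (chr2:12432128-12432160) and peaked 300 bp before the end of the stop codon. The *EXPA5* site, with the lowest score of all, 3.19 (rank 2589), was 7 bp long (chr3:11011583-11011590), and its maximum was at its first base, 45 bp before the end of the stop codon. *MYB110* was also within reach of the *EXPA5* site.

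These exons encode conserved parts of the protein and resembled other expansin genes. The sequence within 100 bp of the maximum matched 11 places in other expansin genes for *EXPA3* (best *EXPA9*, 76.1% over 197 bp), 9 for *EXPA6* (best *EXPA4*, 84.1% over 113 bp) and 4 for *EXPA5* (best *EXPA10*, 71.1% over 142 bp). For *EXPA1* 1 such place was found, in *EXPA10* (77.8% over 81 bp), whereas the windows of both *XTH28* sites, *EXPB1*, *XTH9* and *EXLA2* had no match. None of the 13 windows had a copy with at least 95% identity over at least 160 bp. What this resemblance contributed to the scores was not tested. The 101 bp around the maxima of *EXPA3* and *EXPA6* are shown as examples, with the base of the maximum in capitals.
EXPA3, minus strand, chr2:15788237-15788337: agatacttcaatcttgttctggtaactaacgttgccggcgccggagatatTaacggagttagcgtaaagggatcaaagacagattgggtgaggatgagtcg
EXPA6, minus strand, chr2:12432090-12432190: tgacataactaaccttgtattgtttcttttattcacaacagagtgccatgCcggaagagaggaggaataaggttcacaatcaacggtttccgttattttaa

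Outside the *EXPA* class, *EXPB1* (AT2G20750) had a site with a score of 4.18 (rank 1575) and a length of 25 bp at chr2:8940983-8941008. Its maximum was in the 5′ UTR, 193 bp upstream of the start codon. *EXLA2* (AT4G38400) had a site with a score of 3.4 at chr4:17982136-17982197, and its maximum was 2471 bp upstream of the start codon. This was the site furthest from its gene, and AT4G38410, at a distance of 532 bp, AT4G38420 (*sks9*), AT4G38405 and AT4G38401 were all nearer to it. Among the genes with a site just outside the window, *EXPA18* came closest, with a site of score 5.85 at 1278 bp downstream of the stop codon.

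The 16 expansin genes without a site included *EXPA7* (AT1G12560) and *EXPA18* (AT1G62980), which are expressed in root hair cells, *EXPA2* (AT5G05290), which acts in seed germination, *EXPA14* (AT5G56320) and *EXPA17* (AT4G01630), known from lateral root formation, and *EXPA10* (AT1G26770), a gene of leaf growth. The others were *EXPA4* (AT2G39700), *EXPA11* (AT1G20190), *EXPA12* (AT3G15370), *EXPA13* (AT3G03220), *EXPA16* (AT3G55500), *EXPA20* (AT4G38210), *EXPB3* (AT4G28250), *EXLA1* (AT3G45970), *EXLA3* (AT3G45960) and *EXLB1* (AT4G17030). *EXLA1* and *EXLA3* lie side by side with 2448 bp between their coding parts, and the nearest site was 140626 bp away from *EXLA1*. For *EXPA2* the nearest site was 6144 bp upstream (score 3.4) and for *EXPA7* 4686 bp downstream (score 5.57).

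**Figure D3:**
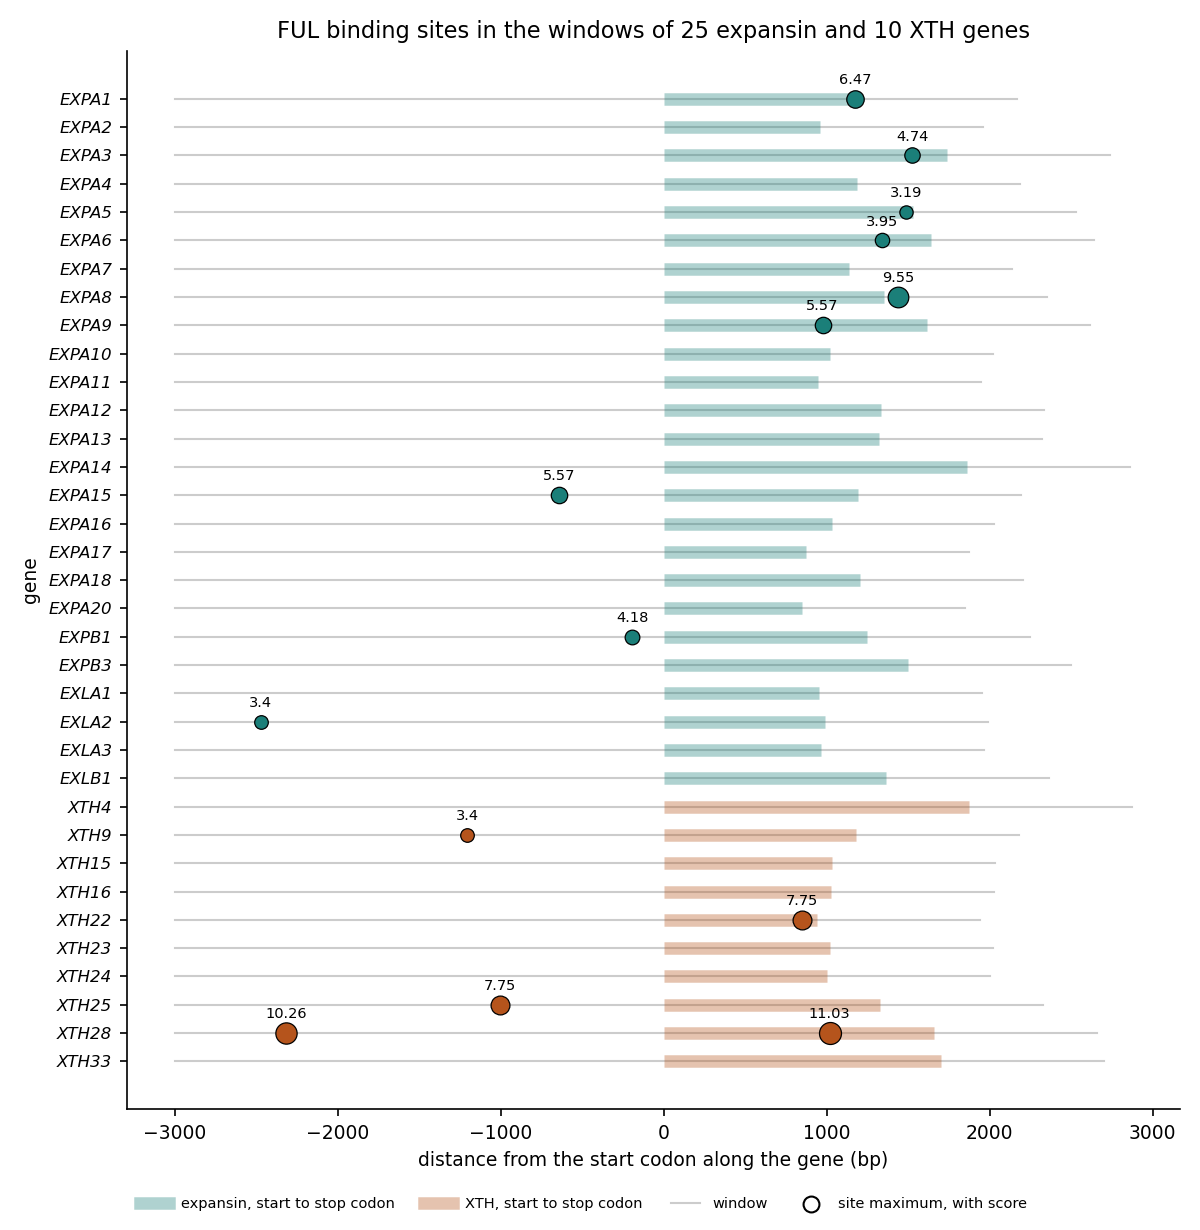
Map of the windows of the 35 genes along the distance from the start codon (bp), with coding regions as thick bars and the maximum of each site as a circle that grows with its printed score. Circles of *EXPA* genes gather towards the end of the coding region, whereas *XTH28* has a site on each side of its start codon and *XTH22* and *XTH25* show the same site.

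The place of the maximum was compared by pairs of a gene and a site. With so few pairs nothing is read from the differences, and the site shared by *XTH22* and *XTH25* counts as inside the first and upstream of the second. Of the 14 pairs of a gene and a site, 6 had the maximum upstream, 6 inside the gene (between the ATG and the stop codon) and 2 downstream (42.9%, 42.9% and 14.3%), whereas for all genes 56.4% of 4540 pairs were upstream, 26.5% inside and 17.0% downstream. Expansin pairs were divided into 3 upstream, 4 inside and 2 downstream, and *XTH* pairs into 3 upstream, 2 inside and none downstream.

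Sites near the stop codon were those of *EXPA1*, *EXPA8*, *EXPA5*, *EXPA3*, *EXPA6* and *XTH22*. These 6 of 14 pairs (42.9%) had the maximum within 300 bp of the end of the stop codon, compared with 463 of 4540 pairs of all genes (10.2%). Counted by gene, with or without a site, 6 of the 35 genes and 1.61% of all protein-coding genes had such a site. Of the 7 *EXPA* genes with a site 5 belonged to this group, and 1 of the 4 *XTH* genes. Among these sites only those of *EXPA8* and *XTH22* were high-scoring, and those of *EXPA5* (3.19) and *EXPA6* (3.95) scored below the median of the list (4.43). The distance of 300 bp was chosen after the values had been seen, and nothing is read from these shares. Within 200 bp, 4 pairs remained (28.6% against 6.61% of all pairs), and within 500 bp no further pair was added (42.9% against 18.1%). In contrast, only *EXPB1* had a site within 300 bp of the start codon (7.14% of pairs against 18.9% for all genes).

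**Figure D4:**
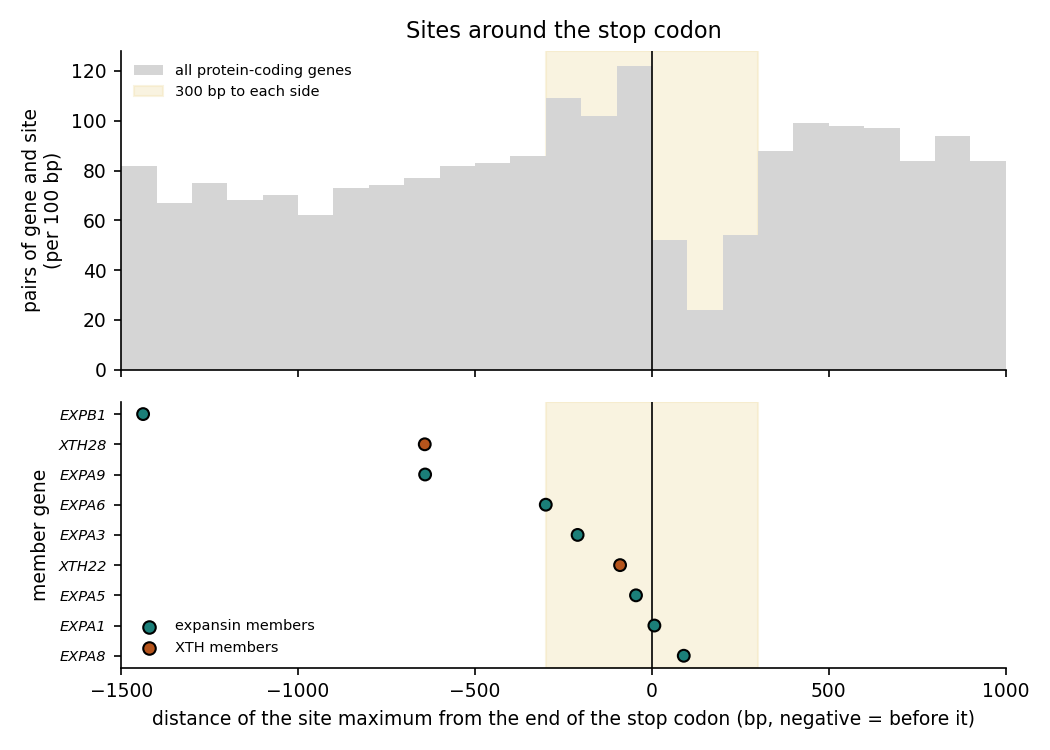
Distance of the site maximum from the end of the stop codon (bp), for pairs of all protein-coding genes (grey, number per 100 bp) and for single genes examined (points, lower panel), with 300 bp to each side shaded. The shaded band holds *EXPA6*, *EXPA3*, *XTH22*, *EXPA5*, *EXPA1* and *EXPA8*, from 300 bp before to 90 bp past the stop codon.

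Exact CArG boxes were found within 100 bp of the maximum in none of the 13 sites, compared with 135 of all 2831 sites (4.77%), 10.1% of high-scoring sites and 1.65% of the windows of the same length upstream of all start codons. At a share of 4.77% a number of 0 among 13 sites is near the background, and nothing is read from it. A best match with 1 mismatch was present at 6 sites (46.2%), namely *XTH28* (intron), *EXPA1*, *EXPA15*, *EXPB1*, *XTH9* and *EXPA9*, compared with 27.4% of all sites, 34.6% of high-scoring sites and 23.6% of the upstream windows. With 13 sites nothing is read from this share either. The centre of this match was 5.5 bp from the maximum in *EXPA15* and 8.5 bp in *EXPA9*, but 77.5 bp in *XTH28*. The other 7 sites, including those of *EXPA8*, *XTH22* and *XTH28* (upstream), had at least 2 mismatches.

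**Figure D5:**
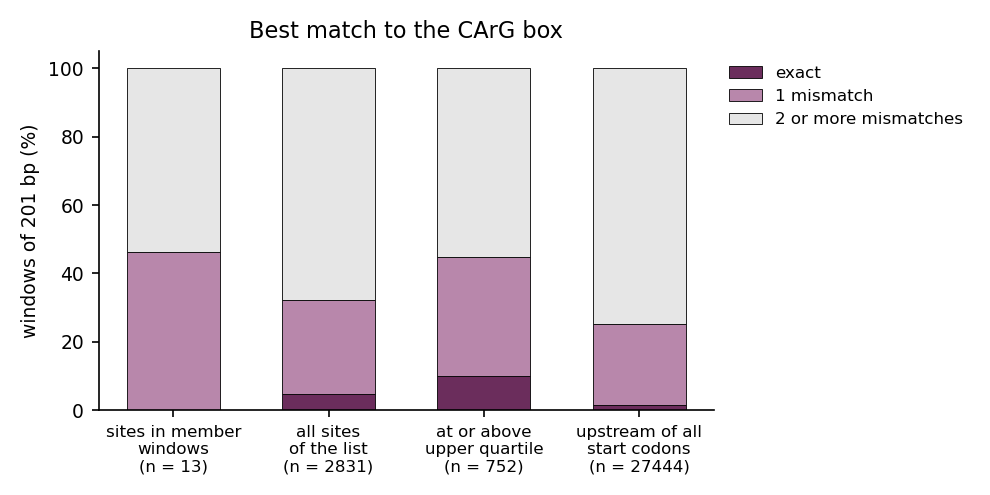
Share of windows (100 bp to each side of the maximum) whose best match to the CArG box is exact, has 1 mismatch or has more, for the 13 sites of the genes examined, all sites, high-scoring sites and windows upstream of all start codons. The 13 sites contain no exact box (4.77% in all sites) and 46.2% with 1 mismatch (27.4% in all sites).

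Exact CArG boxes did occur elsewhere in the windows of these genes, in 12 of 35 (34.3%), compared with 31.3% of all genes. They were present in 6 of 25 expansin windows (24.0%) and 6 of 10 *XTH* windows (60.0%), and in 3 of the 13 genes with a site against 9 of the 22 without. Of all protein-coding genes with a site, 33% had a box in the window. As *XTH22* and *XTH25* both count through 1 box and the genes are few, nothing is read from these differences. In *EXPA15* the nearest of 2 boxes was 717 bp from the maximum, and the box shared by *XTH22* and *XTH25* was 308 bp from it. The G-box CACGTG, searched on both strands like TGTCTC, was in none of the 13 windows (13.1% of all sites and 3.89% of upstream windows), and TGTCTC was in 1 (14.4% and 12.5%). The GC content had a median of 37.8% (range 28.9–48.8%) against 40.8% in all sites, and was 39.3% for expansin and 32.6% for *XTH* sites.

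The remaining genes of the families numbered 12 in the expansins, among them 2 genes related to plant natriuretic peptides, and 23 in the *XTH* family. Only *EXPB4* of the 12 had a site, with a score of 3.4, but 2 *XTH* genes had high-scoring sites, both stronger than any site of the 35 genes. *XTH8* (AT1G11545) had a score of 99.32 (rank 16) at chr1:3881252-3881712, 1148 bp before the ATG, and another site of 3.85 at 1822 bp upstream. Both sites were nearer to other genes, the stronger one to the tRNA gene AT1G11550 (95 bp) and the protein-coding gene AT1G11560 (354 bp), and the weaker one lay inside AT1G11560. *XTH27* (AT2G01850, symbol *EXGT-A3*), which acts in the development of tracheary elements, had scores of 22.04 (rank 93) at chr2:383264-383614, 1981 bp upstream, and 14.22 (rank 194) at chr2:386238-386540, 943 bp past the start codon. With these genes included, 10 of 37 expansin genes (27.0%) and 6 of 33 *XTH* genes (18.2%) had a site, and high-scoring sites were found in 1 expansin (2.7%) and 5 *XTH* genes (15.2%). The share with any site was thus higher in expansin genes, whereas among the 35 genes it had been about equal (36.0% and 40.0%). High-scoring sites were again more frequent in *XTH* genes.

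Other genes that act with these proteins were examined from a list by function. Genes that synthesize or trim xyloglucan, the substrate of XTHs, had a site in 2 of 16 cases (12.5%), near the background of 14.0% of all protein-coding genes. They were *XXT1*, a xylosyltransferase of xyloglucan, with a score of 6.15, and *AXY4*, which acetylates xyloglucan, with a score of 5.57. Plasma membrane proton pumps, which acidify the wall and thereby allow expansins to act, had a site in 4 of 11 genes (36.4%), against the same 14.0%. A high-scoring site was present in 1 of the 11 (9.09%), against 3.94% of all protein-coding genes. The list was chosen with earlier results known, and nothing is read from these shares. The scores were 7.75 for *AHA2*, 5.0 for *AHA4*, 4.43 for *AHA7*, and 3.4 and 4.43 for both sites of *AHA11*. The windows of the pumps were longer, with a median of 8787 bp against 5568 bp for all genes, and what this contributed to their share was not tested.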

How the data were processed

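ChIP and input libraries from pistils and siliques, 2 of each, had been mapped by the authors to TAIR9 with SOAPv2 (at most 2 mismatches, unique reads, plastid and mitochondrial reads removed), and sites were called with CSAR against the input. Versions of these tools are not given in the sources used here. The deposited list gives each site a score, which is 1 value for both replicates without error or read number, and its start, end and maximum. The study applied a false discovery rate limit to its sites, but the list holds no such value, so all sites were used. No columns of per-sample values were present (0 unused). Plants grew on soil per the labels and on rockwool per the study's methods.

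Genes, start and stop codons and sequences came from RefSeq TAIR10.1. All sites fitted its chromosome lengths, and exact CArG boxes occurred in 2.07% of windows from 0 to 100 bp beside the maximum but in 0.60% at 400 to 500 bp (5662 windows each). Distances were counted along the gene. CArG boxes were searched on both strands within 100 bp of the maximum, and similar sequences with BLAST 2.17.0+ (largest e-value 0.001). Python 3.11.15, numpy 2.4.6, pandas 2.3.3 and matplotlib 3.10.9 were used, and the steps were tested on simulated data.

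The members and lists were chosen with earlier results of these data known. Every member was named, as well as other family genes with a high-scoring site and genes nearer to a site than the member. Alternatives concerned score, window, gene ends, position, assignment and motif. Samples served only through the combined list, and no test between groups was made. The expression and reporter experiments of the study were not analysed here. Sequences are not reported for every site.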

Additional observations from a re-analysis of the deposited data

How the results depend on the processing

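Of 48 alternative values, 40 were within 1.5 times the reported value and 8 were not. With sites at or above the median score, 8 of the 35 genes had a site (5 expansins) on 8 sites, and at or above the upper quartile 4 (1 expansin) on 4 sites, whereas *XTH* genes kept 3 under both. In the window from 1000 bp upstream to 500 bp downstream, 2 *XTH* genes and 8 expansins had a site. With 1 mismatch allowed, 6 sites had a CArG box, while wider or shifted windows left the number at 0. Transcript ends or the window from 5000 bp upstream to 2000 bp downstream gave 14 genes by adding *EXPA18*. Counting only the nearest of the genes with the site in their windows gave 11. The median score was 4.74 to 5.155 for expansins and 6.435 to 9.39 for *XTH* genes. The distances of 200 and 500 bp from the stop codon and the nearest gene for high-scoring sites were alternatives chosen after seeing the data. No paired analysis was possible because the list holds no values per replicate, and replicates could not be left out for the same reason. Depth and replicate error are unknown, so sites near the lowest scores, such as that of *EXPA5*, cannot be told from enrichment that was left off the list by a small margin.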
